A study of Homo sapiens with 2 samples.

Results

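Of the 66954 peaks of MYBL2 on chromatin of A673 cells, 5466 had their summit within 1000 bp of a transcription start site (TSS) of a protein-coding gene in sequence that is poor in CpG dinucleotides. Members were taken by position and sequence alone. The summit had to lie within 1000 bp of any annotated TSS of a coding gene (GENCODE, hg19), and the window of 500 bp either side of the summit had to have a CpG observed/expected ratio under 0.4, where a ratio of 1 would be the number of CpGs that the C and G content alone gives. These CpG-poor promoter peaks made up 28.3% of the 19339 coding promoter peaks (95% exact binomial interval 27.6 to 28.9%). The other coding promoter peaks were 2204 at intermediate ratios (0.4 to under 0.6) and 11669 at CpG-rich sequence (0.6 and over). A further 15654 CpG-poor peaks lay over 10000 bp from any TSS and served as a distal comparison.

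A673 is an established Ewing sarcoma cell line that carries the fusion oncogene EWSR1-FLI1. The study asked which genes MYBL2 binds in these cells, and profiled them by chromatin immunoprecipitation and sequencing (ChIP-seq) with 1 library made with an antibody labelled as anti-MYBL2, which the study's methods describe as directed at the activated, phosphorylated protein, and 1 input library of the same line without immunoprecipitation. No replicate was analysed here, so the spread between samples is unknown, no test was made, and the intervals given hold counting error alone. The cells of both libraries were untreated as far as the labels say, and a single line stands for the tumour type.

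MYBL2, also called B-MYB, is a transcription factor of proliferating cells that joins the MuvB complex at promoters of genes for the G2 and M phases of the cell cycle. Most promoters of widely used genes lie in CpG islands, which are generally free of DNA methylation and open in many cell types. CpG-poor promoters more often serve genes used in 1 tissue or state, such as those for olfactory receptors, keratins, immune receptors and liver enzymes, and many genes also have further, less used starts in CpG-poor sequence inside the gene body.

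The difference in sequence can be seen by comparing 3 windows of 151 bases on the plus strand of hg19, with every CpG in capitals. They are shown because they set a strong CpG-poor member, a weaker internal member of a cell cycle gene and the CpG-rich promoter of that gene side by side. The first is centred on the summit at CD68 (chr17:7482623-7482773), upstream of its canonical start. The second is centred on the strongest CpG-poor peak inside AURKB (chr17:8111975-8112125). The third lies at the CpG-rich start of AURKB (chr17:8113903-8114053) and is centred 65 bp upstream of the summit, so that it holds no base annotated as untranslated region, although the first bases of a transcript without annotated coding sequence lie in it.
CD68: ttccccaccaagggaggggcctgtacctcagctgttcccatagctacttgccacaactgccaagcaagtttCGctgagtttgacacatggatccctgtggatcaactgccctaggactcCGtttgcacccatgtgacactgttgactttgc
AURKB internal: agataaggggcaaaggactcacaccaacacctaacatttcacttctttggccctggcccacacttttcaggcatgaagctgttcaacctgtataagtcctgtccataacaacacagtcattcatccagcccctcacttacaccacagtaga
AURKB promoter: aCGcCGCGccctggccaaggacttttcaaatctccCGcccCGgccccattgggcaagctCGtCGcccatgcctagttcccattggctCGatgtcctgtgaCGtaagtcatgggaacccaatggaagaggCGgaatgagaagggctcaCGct
The CD68 window held 2 CpGs, the internal AURKB window 0 and the AURKB promoter window 11.

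The CpG-poor promoter peaks were weaker as a class than the other coding promoter peaks. Their median fold enrichment was 3.59 (quartiles 3.13 and 4.23, range 1.97 to 24.6). Fold enrichment is a linear ratio given by the authors' peak caller. It divides the fragments stacked on the summit by the background estimated from the input, after the same small constant is added to both. CpG-intermediate coding promoter peaks had a median of 4.02 and CpG-rich ones 7.41, so that the medians of CpG-poor and CpG-rich peaks differed by -3.82. The distal CpG-poor peaks, at a median of 3.53, differed from the CpG-poor promoter peaks by 0.06. Over all 66954 peaks the median was 3.79 (quartiles 3.18 and 4.94), near that of the CpG-poor promoter peaks. A fold enrichment of at least 5 was reached by 620 CpG-poor promoter peaks (11.3%, interval 10.5 to 12.2%), against 24.0% of all peaks, 12.8% of distal CpG-poor peaks, 29.5% of CpG-intermediate and 72.5% (71.7 to 73.4%) of CpG-rich coding promoter peaks. The number of fragments stacked on the summit (the pileup), which could be solved from fold enrichment and p together, was 18 at the median of the CpG-poor class (range 11 to 119) and 36 at that of the CpG-rich class. At 18 fragments the exact Poisson interval runs from 10.7 to 28.4 fragments, so differences among most of these peaks were not detectable at this depth. The CpG-poor promoter peaks had a median width of 289 bp, against 732 bp for CpG-rich peaks. It was 282 bp for distal CpG-poor peaks and 319 bp for all peaks. Widths over 1000 bp were found in 7.39% of CpG-poor promoter peaks and 33.7% of CpG-rich ones. Distal CpG-poor peaks had 4.54% and all peaks 11.1%.

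**Figure D1:**
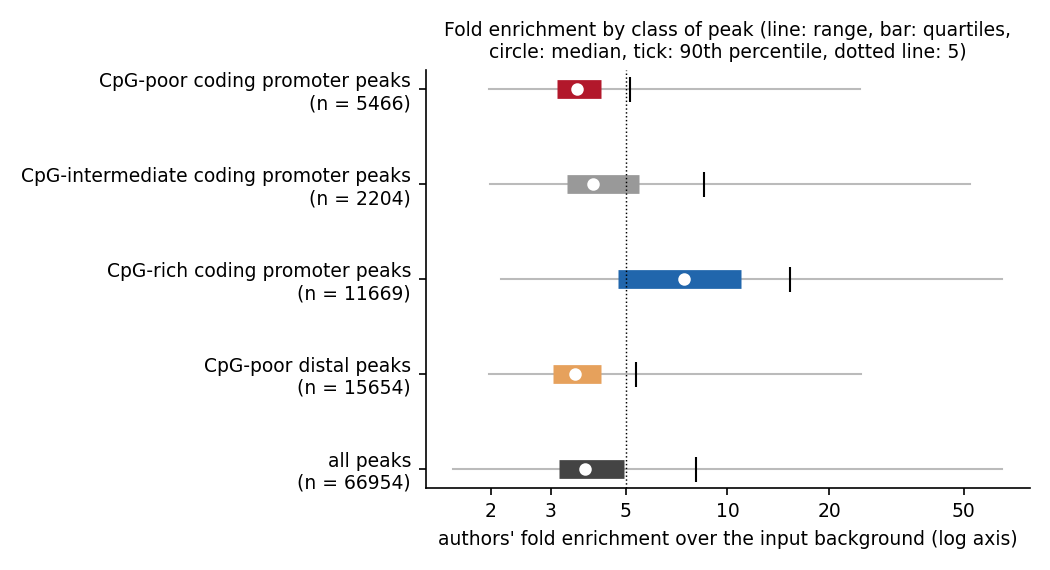
Fold enrichment (log axis) of the peaks in each class, with the range as a line, the quartiles as a bar, the median as a circle and the 90th percentile as a tick. The CpG-poor coding promoter peaks (median 3.59, 90th percentile 5.17) lay close to the distal CpG-poor peaks (3.53 and 5.37) and below the CpG-rich coding promoter peaks (7.41 and 15.3).

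Strength changed little up to the CpG limit and rose beyond it. Coding promoter peaks with a ratio under 0.1 had a median fold enrichment of 3.37 (n = 272), those at 0.35 to under 0.4 had 3.64 (n = 754), and those at 0.4 to under 0.45 had 3.79 (n = 582). The share with a fold enrichment of at least 5 was 8.09%, 13.5% and 16.7% in these bins, 39.1% at 0.5 to under 0.6, and 77.0% at 0.8 and over. Just inside the limit were peaks in SF3A2 (3.82), USP10 (3.67) and UBXN6 (4.49), and just outside it were peaks in SKI (4.04), HNRNPC (4.35) and STK25 (3.32). Among the CpG-poor promoter peaks themselves, the share at 5 or more also went with GC content, from 7.56% (interval 6.31 to 8.97%) under 40% GC to 16.99% (13.8 to 20.5%) at 60% GC and over.

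Most of these peaks were not at the main start of a gene. Only 710 of them (12.99%, interval 12.1 to 13.9%) had their summit within 1000 bp of a canonical start, the first base of the transcript that the annotation marks as representative, against 90.2% of CpG-rich coding promoter peaks. The other 4756 were near an alternative start only, so for most of the class the word promoter stands for any annotated start. In the canonical transcript of the nearest gene, 4122 summits lay in an intron (75.4%), 460 in a coding exon and 97 in the 5′ UTR, 666 lay outside the transcript, and most of the rest were in the 3′ UTR. CpG-rich coding promoter peaks were intronic in 20.4% and CpG-intermediate ones in 54.9%. The intronic share was 59.6% for distal CpG-poor peaks and 53.8% for all peaks. The nearest genes of the CpG-poor promoter peaks had a median of 10 annotated starts and a length of 33.5 kb, against 5 starts and 27.3 kb over all coding genes.

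Around the nearest TSS the summits were spread more evenly than in the CpG-rich class. The 100 bp either side of a coding TSS held 909 of the summits (16.6%, interval 15.7 to 17.6%), against 28.7% in the CpG-intermediate and 59.0% (58.1 to 59.9%) in the CpG-rich class. Even so the 100 bp bins next to the TSS held 8.51% upstream and 8.09% downstream, above the 3.24% of the bin farthest upstream and the 4.48% of the bin farthest downstream. The stronger the CpG-poor promoter peak, the nearer it tended to be. Summits within 100 bp of a TSS made up 13.6% (interval 11.6 to 15.8%) of those with a fold enrichment under 3, 25.2% (21.5 to 29.2%) of those from 5 to under 8 and 30.4% (22.02 to 39.8%) of the 112 with 8 and over. Over the same bins the share near a canonical start went from 11.1% to 21.3% and 35.7%, the intronic share from 78.9% to 68.3% and 52.7%, and the median width from 249 to 790 and 1254 bp.

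**Figure D2:**
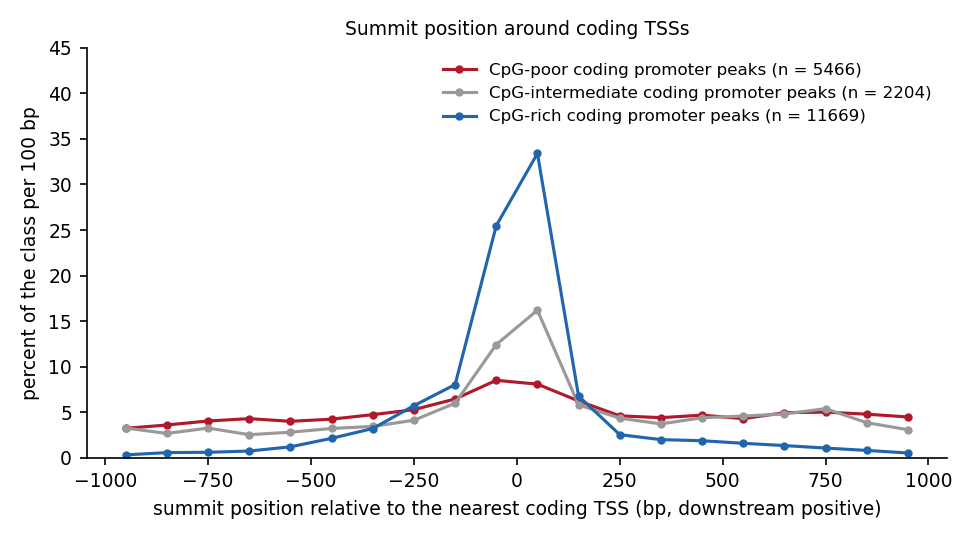
Percent of summits per 100 bp by position relative to the nearest coding TSS (bp, downstream positive) for the 3 CpG classes of coding promoter peaks. CpG-rich peaks gathered at the TSS, while CpG-poor peaks reached only 8.51% in their highest bin.

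To set these peaks against those in the rest of CpG-poor gene bodies, the density of summits was counted over all CpG-poor sequence, defined base by base with the same window and limit. CpG-poor sequence within 1000 bp of a coding TSS spanned 87.9 Mb and held 62.2 peaks per Mb (exact Poisson interval 60.6 to 63.9). The rest of coding gene bodies held 28.3 per Mb (28.0 to 28.6) over 1106 Mb of CpG-poor sequence, and CpG-poor sequence outside coding genes held 7.08 per Mb (6.95 to 7.22). The density near a TSS was thus 2.20 times that of the rest of gene bodies and 8.78 times that outside genes. Within 100 bp of a TSS it was 87.8 per Mb (82.2 to 93.7). For fold enrichments of 5 and over the densities were 15.7 per Mb within 100 bp of a TSS, 7.06 within 1000 bp, 2.57 in the rest of gene bodies and 1.35 outside genes. How well reads map to each kind of sequence was not examined, and its part in these densities was not tested.

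The density differed with whether the sequence lay in the body of a gene with a peak at its canonical start. The bodies of coding genes with a peak at their canonical start held 92.3 peaks per Mb (89.7 to 94.98) in CpG-poor sequence near a TSS. The rest of these bodies held 46.4 per Mb (45.9 to 47.0). Outside these bodies the density near a TSS was 18.6 per Mb (17.3 to 20.1). That sequence includes the upstream flanks of genes with a canonical peak. The rest of the bodies of other coding genes held 7.53 per Mb (7.30 to 7.77). Inside genes with a canonical peak, CpG-poor sequence near a TSS was therefore 1.99 times as dense as the rest of the body. Elsewhere the ratio was 2.47, but its 2 sides do not cover the same genes. A CpG-poor peak at a canonical start itself puts its gene in the first group, but the 4756 peaks at alternative starts do not, and the nearest gene of 4305 of these (90.5%, interval 89.6 to 91.3%) had a peak at its canonical start, against 54.6% of all coding genes. The canonical start of the nearest gene was itself CpG-rich for 4563 of the 5466 peaks (83.5%) and CpG-poor for 633 (11.6%).

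**Figure D3:**
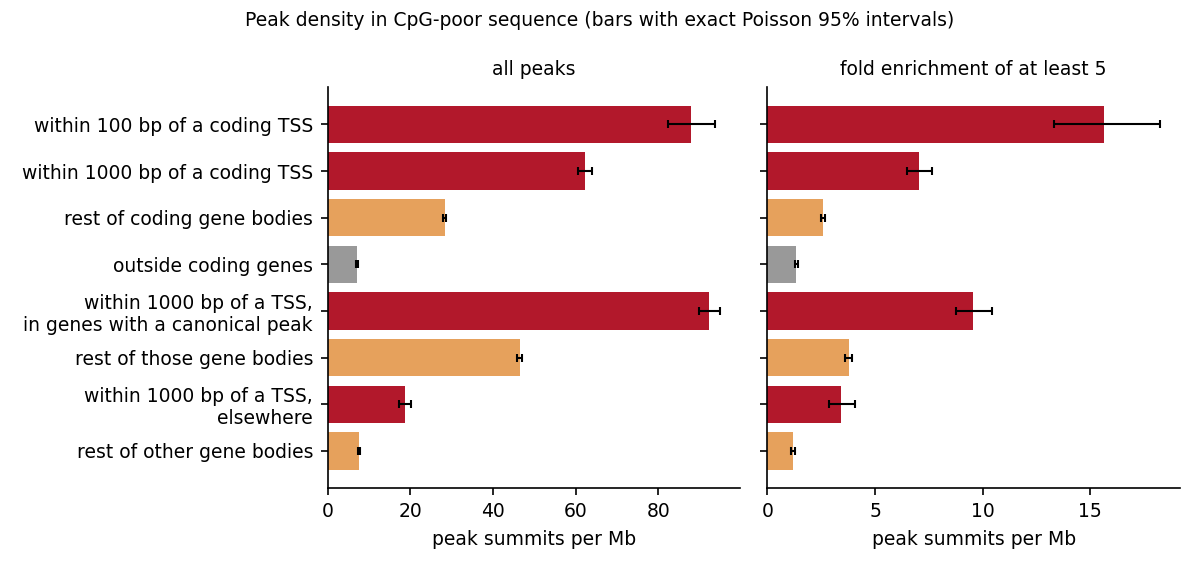
Peak summits per Mb of CpG-poor sequence, for all peaks (left) and those at 5 or more in fold enrichment (right), with exact Poisson 95% intervals. Sequence near coding TSSs (red) exceeded the rest of gene bodies (orange) inside genes with a peak at the canonical start (92.3 against 46.4 per Mb). Elsewhere it held 18.6, with the flanks of such genes included, against 7.53 in the bodies of other genes.

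Some genes held many such peaks. At 188 genes there were 5 or more, and these genes held 1352 of the 5466 peaks (24.7%). FN1, which encodes fibronectin of the extracellular matrix, had the most with 20, between 2.43 and 5.04 in fold enrichment, while the peak at its CpG-rich canonical start had 14.998. XPO1, the main nuclear export receptor, and RBM39, a splicing factor, had 18 each. RBM39 had a peak of 45.7 at its canonical start. MACROH2A2, which encodes a variant histone, had 16 but no peak at its canonical start. PKM, a glycolytic enzyme, had 15, and SMC4, a condensin subunit needed to compact mitotic chromosomes, had 14. These genes had dense peaks throughout, with 8.20 peaks per 10 kb in the body of FN1, 8.29 in XPO1, 8.54 in RBM39 and 9.53 in SMC4.

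Genes whose canonical start is CpG-poor seldom had a peak there. Of 5034 such genes, 374 had a summit within 1000 bp of the canonical start (7.43%, interval 6.72 to 8.19%), against 596 of 1812 (32.9%) at intermediate ratios and 10012 of 13252 (75.6%, 74.8 to 76.3%) at CpG-rich starts, and 54.6% over all coding genes. The share went from 3.61% (1.99 to 5.98%) under a ratio of 0.1 to 12.4% (10.5 to 14.5%) at 0.3 to under 0.4. Olfactory receptor genes, which are mostly silent outside the nose and serve as a background, had a summit at 3 of 399 canonical starts (0.752%, interval 0.155 to 2.18%) and at 2 of their 388 CpG-poor ones. When every annotated start of a gene counted, 2917 of 15293 genes with a CpG-poor start had a peak within 1000 bp of one (19.1%, interval 18.5 to 19.7%).

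**Figure D4:**
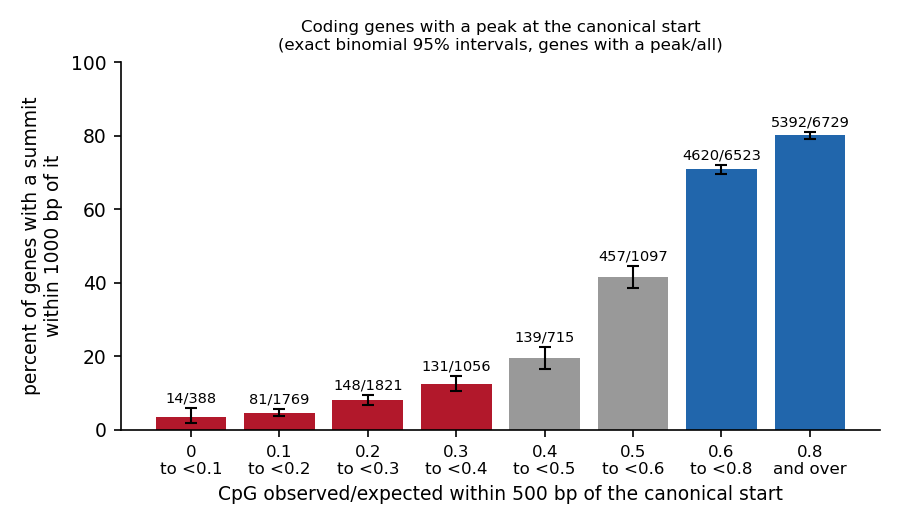
Percent of coding genes with a peak summit within 1000 bp of the canonical start, by the CpG observed/expected ratio within 500 bp of that start, with exact binomial 95% intervals and the counts above each bar. The share went from 3.61% in the lowest bin to 80.1% in the highest, and the CpG-poor bins (red) stayed at or below 12.4%.

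The 415 CpG-poor peaks near a CpG-poor canonical start had a median fold enrichment of 4.02, above the 3.59 of the class, and held 119 of the 620 at 5 or more. The 216 near a CpG-rich canonical start, on its CpG-poor shores, had a median of 3.49 with 15 at 5 or more. Distance from the next CpG-rich coding promoter peak showed no simple order. The share at 5 or more was 8.06% (interval 6.14 to 10.3%) within 2000 bp of such a summit, 12.6% from there to 10000 bp, 9.31% to 50000 bp and 15.5% (13.4 to 17.8%) beyond.

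The 12 strongest CpG-poor promoter peaks had fold enrichments of 12.8 to 24.6 and pileups of 56 to 119 fragments over backgrounds of 3.45 to 5.66. The first lay in YPEL4, a member of the yippee gene family, on chromosome 11 (57411994 to 57417207), with its summit in a coding exon 516 bp downstream of an alternative start. It had 119 fragments (interval 98.6 to 142.4) and a fold enrichment of 24.6, and was 5214 bp wide. The second was narrow, 475 bp, and lay 10 bp from an internal start of TLE6, a gene of the Groucho corepressor family, on chromosome 19 (2983892 to 2984366), with a fold enrichment of 22.2. The third stood upstream of CD68, a lysosomal glycoprotein used as a marker of macrophages, on chromosome 17 (7482175 to 7483603), with 102 fragments (83.2 to 123.8) and a fold enrichment of 22.05. It had 8 CpGs within 500 bp of the summit and a ratio of 0.111, the lowest of the 12. The counting intervals of the pileups at YPEL4, TLE6 and CD68 overlap, so the order of these peaks is not set by the counts.

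Below them followed an internal start of CLPB (19.2), a mitochondrial protein disaggregase, an upstream start of CEACAM21 (17.5), a cell adhesion gene, and the CpG-poor flank of the CpG-rich start of STK40 (17.4), a kinase-like gene, with the summit at -793 bp. CCDC80, which encodes a secreted matrix protein, had its summit 62 bp upstream of its canonical start (17.4, 79 fragments, interval 62.5 to 98.5). SLC7A11, the cystine transporter that supplies glutathione synthesis, had a peak 328 bp downstream of its start (15.7). TNFAIP6, which encodes a hyaluronan-binding protein, had one 55 bp downstream (15.4), and TNRC6B, a protein of microRNA silencing, one 4 bp downstream (14.4). TMEM241 (13.2) and UGT3A2 (12.8), a glycosyltransferase gene, completed the 12. Own canonical starts were CpG-poor for 8 of them, YPEL4, CD68, CEACAM21, CCDC80, SLC7A11, TNFAIP6, TNRC6B and UGT3A2.

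**Figure D5:**
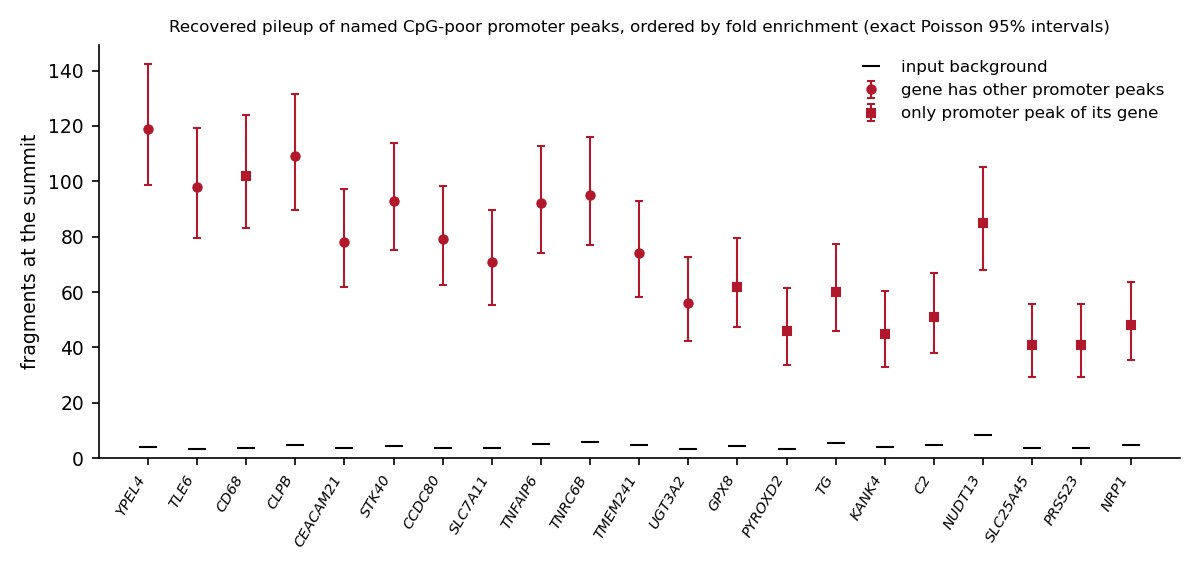
Fragments stacked on the summit for the 12 strongest CpG-poor promoter peaks and the 10 strongest that are the only promoter peak of their gene (squares), with exact Poisson 95% intervals and the input background as dashes. Pileups ran from 41 to 119 fragments and backgrounds from 3.45 to 8.40.

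For 337 of the CpG-poor promoter peaks (6.17%) no other peak lay within 1000 bp of any start of the gene. CD68 led these as well. It was followed by GPX8 (11.9, 62 fragments), an endoplasmic reticulum peroxidase with its summit in a coding exon 828 bp downstream of the canonical start, and by PYROXD2 (10.6, 46 fragments), a mitochondrial oxidoreductase. TG, which encodes thyroglobulin of the thyroid, had an intronic peak of 9.60 near an internal start. KANK4 (9.27) and NRP1 (8.65), a receptor for semaphorins and vascular growth factor, had intronic peaks 47234 and 132426 bp from their CpG-rich canonical starts, which had none. The peak near C2 (9.18), a complement gene, also lay within 1000 bp of a start of EHMT2, a histone methyltransferase, and cannot be assigned to either. NUDT13 (9.15), a Nudix hydrolase gene, had its summit 1 bp from the canonical start, with 85 fragments over the highest background of these genes, 8.40. SLC25A45, a mitochondrial carrier, and PRSS23, a serine protease, had 8.71 each, with 41 fragments (29.4 to 55.6).

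Summits close to a canonical start are shown to let the sequence under strong CpG-poor peaks be read. Among the strongest with the summit within 100 bp of a canonical start and no base annotated as untranslated region in the window, 6 are given as 101 bases of the plus strand of hg19, centred on the summit, with matches to any of the 10 motifs searched in capitals. They are at UGT3A2 (chr5:36066999-36067099, fold enrichment 12.8), SHC1, an adaptor of receptor kinases (chr1:154943230-154943330, 11.9), S100A13, a calcium-binding protein (chr1:153599847-153599947, 11.5), AGPAT1, an enzyme of phospholipid synthesis (chr6:32143903-32144003, 11.01), INPP5B, a phosphoinositide phosphatase (chr1:38412735-38412835, 8.77), and IFI6, an interferon-induced gene (chr1:27998729-27998829, 8.14).
UGT3A2: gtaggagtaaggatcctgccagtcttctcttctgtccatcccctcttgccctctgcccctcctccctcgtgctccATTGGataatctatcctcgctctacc
SHC1: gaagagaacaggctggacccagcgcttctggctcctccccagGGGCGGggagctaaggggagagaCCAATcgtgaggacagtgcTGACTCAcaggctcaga
S100A13: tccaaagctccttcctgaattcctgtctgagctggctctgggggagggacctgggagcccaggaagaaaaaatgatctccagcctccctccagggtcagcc
AGPAT1: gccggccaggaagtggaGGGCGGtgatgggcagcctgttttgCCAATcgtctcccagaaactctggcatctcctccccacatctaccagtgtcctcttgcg
INPP5B: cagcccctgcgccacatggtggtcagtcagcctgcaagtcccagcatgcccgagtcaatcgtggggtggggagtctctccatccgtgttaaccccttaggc
IFI6: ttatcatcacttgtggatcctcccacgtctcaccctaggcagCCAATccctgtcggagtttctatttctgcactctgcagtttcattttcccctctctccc
A CCAAT box was found in 4 of these 6 windows, a GC box in 2 and an AP-1 site in 1, while S100A13 and INPP5B held no match. At all 710 CpG-poor peaks within 1000 bp of a canonical start the shares were 10.6%, 6.06% and 3.52%. The 6 windows were chosen after their values were seen and do not stand for the class. No MYB or CHR match lay within 50 bp of any of these 6 summits.

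The motifs were sought on both strands within 50 bp of each summit. The MYB letters, which were CAACGG, with TAACGG, with CAACTG or with TAACTG, were found at 604 of the 5466 summits (11.1%, interval 10.23 to 11.9%), against 9.51% of windows of the same length centred 500 bp either side, 11.1% at distal CpG-poor summits, and 10.8% (10.6 to 11.1%) at the 56069 CpG-poor coding starts without a peak. The share was 1.16 times that of the flanks at the summits, and at the starts without a peak it was 1.15 times that of their own flanks. With a fold enrichment of 5 and over it was 11.9% (9.49 to 14.8%) against 9.52% in the flanks, a share inside that interval. The cell cycle genes homology region (CHR), the element that the MuvB complex binds, was sought as TTTGAA or TTCGAA and found at 10.4% of summits (9.56 to 11.2%), 8.53% of flanks and 8.24% (8.01 to 8.47%) of starts without a peak, while distal CpG-poor summits held it at 12.3%. Its share was not higher in strong peaks than in the whole class. In those of 5 and over it was 7.58% (5.62 to 9.95%) against 8.39% in their flanks. In the 112 of 8 and over it was 9.82% (5.01 to 16.9%) against 6.25%. Beside CpG-poor peaks, CpG-rich ones held the MYB letters at 7.90% and CHR at 3.70% of summits, which have a higher GC content (median 63.6% against 45.4%).

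The ETS site, the GC box, the E-box and all the E2F letters, given below, hold a CpG. So do CAACGG and TAACGG among the MYB letters and TTCGAA among those of CHR. A class chosen for few CpGs has few of these by its rule, and their shares are given as a description. The ETS site CCGGAAGT was at 8 summits (0.146%, interval 0.063 to 0.288%), against 3.12% (2.81 to 3.45%) of CpG-rich ones, and the GC box GGGCGG at 2.49% against 30.9%. At the 112 CpG-poor peaks of 8 and over, the GC box was at 13 summits (11.6%, 6.33 to 19.0%) and 4.46% of their flanks. CCAAT was at 12.4% of all the CpG-poor summits and 11.8% of flanks, TATAAA at 7.39% and 7.56%, the E-box CACGTG at 1.70% and 1.31%, and the E2F letters (TTTCCCGC, with TTTCGCGC, with TTTGCCGC or with TTTGGCGC) at 0.201% and 0.183%. The AP-1 site, TGACTCA or its reverse complement, was at 1.96% (1.61 to 2.36%) and 1.52%, and near canonical starts at 3.52% (2.29 to 5.15%) and 1.83%. A run of 3 or more GGAA, the repeat that EWSR1-FLI1 binds, was within 50 bp of 4 summits (0.073%, interval 0.02 to 0.187%). At CpG-poor coding starts without a peak the shares were 0.125% for the ETS site, 3.52% for the GC box, 12.2% for CCAAT, 6.83% for TATAAA, 1.25% for the E-box, 0.235% for E2F, 1.87% for AP-1 and 0.054% for the GGAA run.

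Cell cycle genes, the best known targets of MYBL2, entered the class with weak peaks beside the one at their main start. Of 70 genes of the G2 and M phases, none had a CpG-poor canonical start and 69 had a peak at the canonical start, yet 27 also had at least 1 CpG-poor promoter peak (38.6%, against 14.3% of all coding genes), 71 peaks in all with a median fold enrichment of 3.37. Among all coding genes with a peak at the canonical start the share with a CpG-poor promoter peak was 23.4% (interval 22.7 to 24.3%), beside 39.1% (27.6 to 51.6%) of the 69 cell cycle genes. Genes with more starts have more places for such a peak, and the cell cycle genes had a median of 6 starts against 5. AURKB, the mitotic kinase Aurora B, is an example. Its CpG-rich promoter peak had 107 fragments (87.7 to 129.3) and a fold enrichment of 19.1, while 4 CpG-poor peaks in its body had 20, 16, 17 and 19 fragments and fold enrichments of 4.72, 3.82, 3.804 and 3.03. PLK1, a mitotic kinase, had 5 CpG-poor peaks of up to 5.12 beside a canonical peak of 29.6. CCNB1, cyclin B1, had 3 of up to 5.28 beside 14.0, TACC3, a spindle protein, 6 of up to 5.84 beside 10.6, and SMC4 14 of up to 6.16 beside 17.8. In each of these 5 genes the CpG-poor peaks were weaker than the peak at the canonical start. BIRC5, the mitotic regulator survivin, CCNF, cyclin F, and MYBL2 itself had no CpG-poor promoter peak. Their promoter peaks at 37.1, 9.21 and 10.8 lay in CpG-rich sequence, and BIRC5 had 2 more (6.34 and 4.65) at ratios of 0.482 and 0.612.

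Genes that the study lists as changed after knockdown of MYBL2 were placed the same way. Of 30 genes that fell and could be matched, 13 had a CpG-poor promoter peak (43.3%), and of 40 that rose, 4 (10.0%), beside 14.3% of all coding genes. Among those with a peak at the canonical start the counts were 12 of 23 (52.2%, interval 30.6 to 73.2%) and 3 of 24 (12.5%, 2.66 to 32.4%). The share among all coding genes with such a peak was 23.4%. The lists of genes that fell and rose had medians of 8 and 7.5 starts, against 5 over all coding genes. Of the 13 that fell and had such a peak, 5 are also in the cell cycle list, AURKB, CKAP2L, MKI67, PIF1 and PSRC1. Both knockdown lists come from the study's own knockdown. BCL9, a coactivator of Wnt signalling whose canonical start is CpG-poor, stood apart among those that fell. It had 2 such peaks, 254 bp downstream (11.3, 55 fragments, interval 41.4 to 71.6) and 391 bp upstream (8.998, 42 fragments) of its start. The other members among the genes that fell were at 4.99 or lower, led by IGF2BP2, an RNA-binding protein, and among those that rose the highest was at EML6 (5.07).

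Genes tied to EWSR1-FLI1 were counted in the same way. Of 50 genes commonly given as activated by the fusion, 18 had a CpG-poor promoter peak (36.0%), and of 38 commonly given as repressed, 15 (39.5%), beside 14.3% of all coding genes. Among those with a peak at the canonical start the counts were 17 of 36 (47.2%, interval 30.4 to 64.5%) and 13 of 24 (54.2%, 32.8 to 74.4%), beside 23.4% of all such genes. Their median numbers of starts were 6 and 8, against 5 over all coding genes. The median fold enrichment of their peaks was 3.596 and 3.22, against 3.59 for the class. At CpG-poor canonical starts, of which 7.43% had a peak over all coding genes, 3 of 7 activated genes had one, namely TNFAIP6 (15.4), LIPI, a lipase gene (6.08), and IGF1, a growth factor (4.44). The LIPI peak was 7004 bp wide in sequence of 25.5% GC. Other activated genes had peaks in the body or flank, such as ABHD6 (10.6), a lipid hydrolase, and PAPPA (7.11), a protease that frees insulin-like growth factors. Among the repressed, 6 of 12 with a CpG-poor canonical start had a peak there. Among them were COL5A2 (7.49), TIMP1 (7.25), an inhibitor of matrix proteases, CALD1 (5.82), which binds actin, ACTA2 (4.76), a smooth muscle actin, and COL3A1 (3.001). VIM, which encodes the mesenchymal filament vimentin, had a peak of 9.09 in a coding exon near an internal start and none within 1000 bp of its canonical start.

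In a list of 27 genes of the mesenchymal matrix, of which FN1 also stands among the repressed genes, 11 had a CpG-poor promoter peak (40.7%, against 14.3% of all coding genes). Among the 18 with a peak at the canonical start it was 10 (55.6%, interval 30.8 to 78.5%, against 23.4%). The list had a median of 8 starts and its peaks a median fold enrichment of 3.35. Of its genes, 4 of the 5 with a CpG-poor canonical start had a peak there, at S100A4 (6.91), SPARC (6.64), ANXA1 (6.61) and LGALS1 (4.94). ANXA2 (7.59) and ADAMTS1 (7.53), both with CpG-rich canonical starts, had the strongest internal peaks. Ribosomal protein genes, which mostly have CpG-rich starts and are highly used, had CpG-poor promoter peaks at 31 of 84 (36.9%, against 14.3% of all coding genes). All 31 were among the 81 with a peak at the canonical start (38.3%, interval 27.7 to 49.7%, against 23.4%), and the list had a median of 8 starts against 5. Those peaks had a higher median than the class as a whole, 4.27 against 3.59 and 16 of 58 at 5 or more. RPLP0 had 2, at 8.88 and 8.65, beside a canonical peak of 33.2.

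Lists of genes of other tissues with mostly CpG-poor starts had few peaks at those starts, where 374 of 5034 genes (7.43%) had one overall. Peaks were found at 1 of 35 CpG-poor canonical starts of immune genes (CD68), at 0 of 26 of liver genes (a count of 0 allows up to 11.5%), at 0 of 24 of muscle genes (up to 12.5%), at 0 of 45 of defensins (up to 6.67%), at 0 of 88 of keratin-associated proteins (up to 3.41%) and at 0 of 36 of cytochromes P450 (up to 8.33%). The limits for liver, muscle and P450 genes lie above the overall share, so a lower share was not detectable for them. The limit for defensins is 3 divided by the number of genes, and an exact interval reaches 7.87% at 0 of 45. A lower share was therefore not detectable for defensins either. No interval was computed for the immune, chemokine and interleukin, and keratin counts, so a lower share was not established for these lists. Chemokine and interleukin genes had peaks at 2 of 67, at CCL2 (4.49), a chemokine that attracts monocytes, and IL7R (3.75), the receptor of interleukin-7, where the summit was 986 bp downstream of the start. Keratins had 1 of 47, at KRT8 (2.82), and a stronger peak of 7.43 lay 615 bp downstream of the canonical start of KRT18 and 43 bp downstream of an alternative start of KRT8, the keratins that pair in simple epithelia. Among olfactory receptors, OR5A2 (5.28, 35 fragments, interval 24.4 to 48.7) had its summit 72 bp upstream of its start and OR4E2 (3.12) 13 bp upstream. Replication-dependent histone genes, which have no CpG-poor canonical start and 45 of 67 of which had a peak at that start, had no CpG-poor promoter peak (up to 4.48%). These histone genes had a median of 1 start, as had taste receptors, and protocadherins had 2, against 5 over all coding genes. Genes with fewer starts have fewer places for such a peak. Among 34 muscle genes, ACTN2, an actin cross-linker of the sarcomere, held all 8 CpG-poor promoter peaks, with a maximum of 4.94. Cytochromes P450 had such peaks at 3 of 57, with a maximum of 9.44 at CYP27B1, which activates vitamin D. Neural genes had them at 3 of 41, the highest at SYT1 (4.46), zinc finger genes at 44 of 544 (8.09%) with a maximum of 9.72 at ZNF668, and solute carriers at 48 of 373 (12.9%). The overall share was 14.3%, and the last 3 lists mostly have starts that are not CpG-poor. Histocompatibility genes had none at 19 (up to 15.8%). Taste receptors had none at 27 (up to 11.1%), although 1 of their 27 CpG-poor canonical starts, that of TAS1R1 (34.1), had a summit within 1000 bp that was no CpG-poor promoter peak of the gene. Protocadherins had 1 at 65, at PCDHGC3 (3.49), and summits near 2 of 6 CpG-poor canonical starts, PCDH12 (4.65) and PCDH20 (3.59).

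By chromosome the shares differed in both directions from those of all peaks. Chromosome 1 held 13.1% of the CpG-poor promoter peaks and 12.6% of all peaks, chromosome 12 held 8.07% and 6.26%, chromosome 19 held 6.40% and 4.43%, chromosome 11 held 6.75% and 5.03%, and chromosome 4 held 2.60% and 4.15%. Of coding genes these chromosomes held 10.4%, 5.17%, 7.36%, 6.55% and 3.79%, in the same order. Against that base chromosome 19 lay below its share and chromosome 11 close to it.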

How the data were processed

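The deposited list holds 1 line per peak of 1 MYBL2 ChIP library against 1 input library of A673 cells. The authors aligned reads to hg19 with Bowtie2 (2.1.10 in the submitters' processing notes) and called narrow peaks with MACS2 (2.0.10). The deposited fold enrichment is a linear ratio, the deposited −log10 p and −log10 q are the caller's, and the deposited score is 10 times the −log10 q. Which peaks the authors dropped in cleaning the list is not given in the sources used here, and the read totals that the study states were not used. Pileups were recovered as the whole number that solves fold enrichment and p together (largest misfit 3.49e-05 in −log10 p), on all 66954 peaks. Positions count from 1.

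Genes were 20098 coding genes of GENCODE v44 lifted to GRCh37, which has hg19 coordinates, with 146028 TSS positions of any transcript. 0 peaks ran past a chromosome end. Python 3.11.15, numpy 2.4.6, pandas 2.3.3 and scipy 1.17.1 were used, and the code was tested on simulated data. Intervals are exact, at 95%. The upper limits given for a count of 0 are instead 3 divided by the number of genes.

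Members and the 23 gene lists were chosen with earlier results of these data known. Lists other than gene families and the study's knockdown genes came from general knowledge. A member belonged to the gene of its nearest TSS. Named genes were the 12 strongest members, the 10 strongest that are their gene's only promoter peak, up to 8 (knockdown, EWSR1-FLI1 and cell cycle lists) or 3 (other lists) per list, those at the CpG limit, and AURKB, BIRC5, CCNF and MYBL2. Genes named for many peaks, for printed sequences or for a small count of list genes were chosen after their values were seen. Some genes that the rule would name are not reported here.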

Additional observations from a re-analysis of the deposited data

How the results depend on the processing

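The number of members ranged from 620 to 6539 over the alternatives, and the median of members stayed below that of CpG-rich peaks in each. At a CpG limit of 0.3 the median fold enrichment was 3.53, -3.88 from CpG-rich peaks and 0.0 from distal ones, and 16.0% of genes with a CpG-poor start had a peak there. At 0.5 these were 12.7% with a fold enrichment of at least 5 and 21.8% of genes, and a CpG window of 250 bp gave 20.5% of genes. A TSS distance of 500 bp gave 3134 members, 12.5% at 5 or more, a difference of -4.14 from CpG-rich peaks, 29.0% within 100 bp of a TSS and 13.5% of genes. Canonical starts alone gave 710 members with a median of 3.79, 20.8% at 5 or more, differences of -3.88 and 0.26 from CpG-rich and distal peaks, 20.7% within 100 bp, 7.43% of genes, MYB at 9.58% and CHR at 8.03%. Starts of protein-coding transcripts alone gave 2517 members, 14.1%, 19.1% within 100 bp and 14.5% of genes. Peaks with −log10 q of at least 5 gave 2302 members, a median of 4.38, 26.9%, a difference of 0.000445 from distal peaks, 20.5% within 100 bp and 11.9% of genes. Peaks at 5 or more alone gave 620 members, a median of 6.07, -3.11 from CpG-rich peaks, 26.1% within 100 bp, 5.49% of genes, MYB at 11.9% and CHR at 7.58%. Placing a peak by any of its bases gave 13.6% at 5 or more, 14.1% within 100 bp and 22.39% of genes. Motif windows of 100 bp gave MYB at 21.0% and CHR at 18.9%, and flanking windows 9.51% and 8.53%. Fewer starts or peaks were allowed by construction in most of these, and the cause was otherwise not tested.

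No paired analysis was possible because both groups hold a single library. At the median pileup of 18 fragments counting error alone spans 10.7 to 28.4, so peaks of average strength cannot be ranked among themselves. How far values vary between ChIP or input libraries was not tested, and TSSs of rarely used transcripts were counted like any other.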
